A study of Homo sapiens with 13 samples.

Results

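The promoters of 59 genes that act in G2 and mitosis were examined in T98G, a human glioblastoma cell line, for their chromatin accessibility in G1 and in M-phase. All 59 genes had at least 1 accessible region (peak) over an annotated transcription start site (TSS), with 64 such peaks among the 16131 promoter peaks and 129347 peaks of the deposited table. The peak with the highest mean over all libraries was taken as the main promoter peak of a gene, and all 59 passed the filter on low values. Accessibility had been measured by ATAC-seq, in which the Tn5 transposase inserts sequencing adapters into open DNA, with 3 libraries per phase. The G1 libraries came from cells that had been kept without serum for 72 h. The M-phase libraries came from cells starved for 48 h, then given serum together with nocodazole for 36 h and collected by shaking off the rounded cells. Nocodazole depolymerizes microtubules and arrests cells in mitosis. Serum and drug thus changed together with the phase, and the M-phase libraries alone were also run on a NextSeq, so phase, serum, drug and platform cannot be told apart. In bulk libraries, more cells with an open promoter and more insertions per open promoter cannot be told apart either.

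Entry into mitosis is driven by CDK1 bound to cyclin B, and is followed by spindle assembly, chromosome attachment, the destruction of mitotic proteins by the anaphase-promoting complex (APC/C) and cytokinesis. Most genes that encode this machinery are transcribed late in the cell cycle. In quiescent and G1 cells they are repressed by the DREAM complex, whose MuvB core (LIN9 is a subunit) binds the cell cycle genes homology region (CHR), and in G2 MuvB joins B-MYB (MYBL2) and FOXM1 to activate them. NF-Y, which binds CCAAT boxes, commonly occupies the same promoters.

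The sequences of 10 of these promoters are shown, with the elements described here marked where they occur. They include large rises in M-phase, the central kinases CDK1 and PLK1, and the 3 promoters that were lower in M-phase. The printed bases of CENPE and NUF2 hold none of these elements. Those of TTK hold CCAAT boxes only, since its CHR begins at -2 and runs past the printed end. Each line gives the 130 bases just before the canonical TSS, 5′ to 3′ on the strand of the gene, as read from the GRCh37 (hg19) primary assembly. Capitals mark CCAAT boxes and CHR matches, read on either strand, and the GCGG of a cell cycle dependent element where it stands 4 bases before a CHR.
CKS2 (chr9:91925980-91926109, plus strand): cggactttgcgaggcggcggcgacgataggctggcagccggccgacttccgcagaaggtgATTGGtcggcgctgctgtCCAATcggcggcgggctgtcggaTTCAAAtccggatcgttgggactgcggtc
CKS1B (chr1:154947027-154947156, plus strand): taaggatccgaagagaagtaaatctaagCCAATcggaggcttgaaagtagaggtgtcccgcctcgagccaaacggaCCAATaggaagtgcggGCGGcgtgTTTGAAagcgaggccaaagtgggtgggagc
CCNB2 (chr15:59397215-59397344, plus strand): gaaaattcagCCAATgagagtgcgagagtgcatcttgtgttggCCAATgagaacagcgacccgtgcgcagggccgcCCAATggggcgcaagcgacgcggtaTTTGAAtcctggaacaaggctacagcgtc
AURKB (chr17:8113894-8114023, minus strand): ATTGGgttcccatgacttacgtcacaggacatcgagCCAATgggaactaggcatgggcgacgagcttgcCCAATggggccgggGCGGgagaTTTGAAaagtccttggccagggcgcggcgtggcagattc
PRC1 (chr15:91537766-91537895, minus strand): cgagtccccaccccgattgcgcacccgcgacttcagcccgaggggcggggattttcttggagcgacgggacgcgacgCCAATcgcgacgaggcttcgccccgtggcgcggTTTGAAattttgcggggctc
CDK1 (chr10:62538106-62538235, plus strand): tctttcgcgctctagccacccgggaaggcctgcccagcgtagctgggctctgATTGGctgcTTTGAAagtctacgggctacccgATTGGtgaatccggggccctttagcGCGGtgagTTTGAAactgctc
PLK1 (chr16:23690080-23690209, plus strand): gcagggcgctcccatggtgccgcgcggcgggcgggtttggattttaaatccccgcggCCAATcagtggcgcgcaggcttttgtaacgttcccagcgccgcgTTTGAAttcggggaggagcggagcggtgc
TTK (chr6:80714236-80714365, plus strand): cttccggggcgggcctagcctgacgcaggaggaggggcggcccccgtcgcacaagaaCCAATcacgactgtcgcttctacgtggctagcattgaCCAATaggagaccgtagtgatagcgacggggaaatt
CENPE (chr4:104119501-104119630, minus strand): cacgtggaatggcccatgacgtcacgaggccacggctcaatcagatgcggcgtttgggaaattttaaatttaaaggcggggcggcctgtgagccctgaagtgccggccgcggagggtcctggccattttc
NUF2 (chr1:163291614-163291743, plus strand): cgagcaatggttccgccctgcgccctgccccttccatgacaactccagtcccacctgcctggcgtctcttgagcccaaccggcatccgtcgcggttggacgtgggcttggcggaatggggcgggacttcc

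Matches to these elements were more frequent in the mitotic promoters than in other promoters. In the window from 250 bases before to 50 bases after the canonical TSS, a CHR (TTTGAA or TTCGAA on either strand) was found in 48 of 59 promoters, or 81.4%, against 9.53% of 11019 other promoter peaks that hold a canonical TSS. A CCAAT box was present in 81.4% against 35.7%, and at least 2 of them in 52.5% against 13.5%. The tandem of GCGG, a gap of 4 bases and TTTGAA, which by construction is also counted as a CHR, was found in 8 promoters (13.6% against 0.127%), among them those of CKS1B, AURKB and CDK1 shown above. E2F matches (TTTCGCGC, TTTGGCGC, TTTCCCGC or TTTGCCGC on either strand), which are typical of genes induced earlier at G1/S, did not stand out, with 5.08% against 5.37%. The CHR match nearest to the start had its first base at a median of -19, and in 35 promoters a CHR lay within 60 bases before to 20 bases after the start (59.3% against 2.01% of other promoters). A CCAAT box in the 150 bases upstream together with such a CHR was found in 52.5% of the mitotic promoters and 0.826% of the others. Of 56 pairs of neighbouring CCAAT boxes, 23 lay 30 to 40 bases apart, with a median distance of 37 bases. The windows at the canonical TSS and the position classes were chosen after the data had been seen. Over whole peaks the contrast was smaller, with a CHR in 91.5% against 35.4% and a CCAAT box in 83.1% against 60.4% of all other promoter peaks. These genes are known targets of the factors in question, so the matches describe the promoters and do not bear on binding in these cells.

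**Figure D1:**
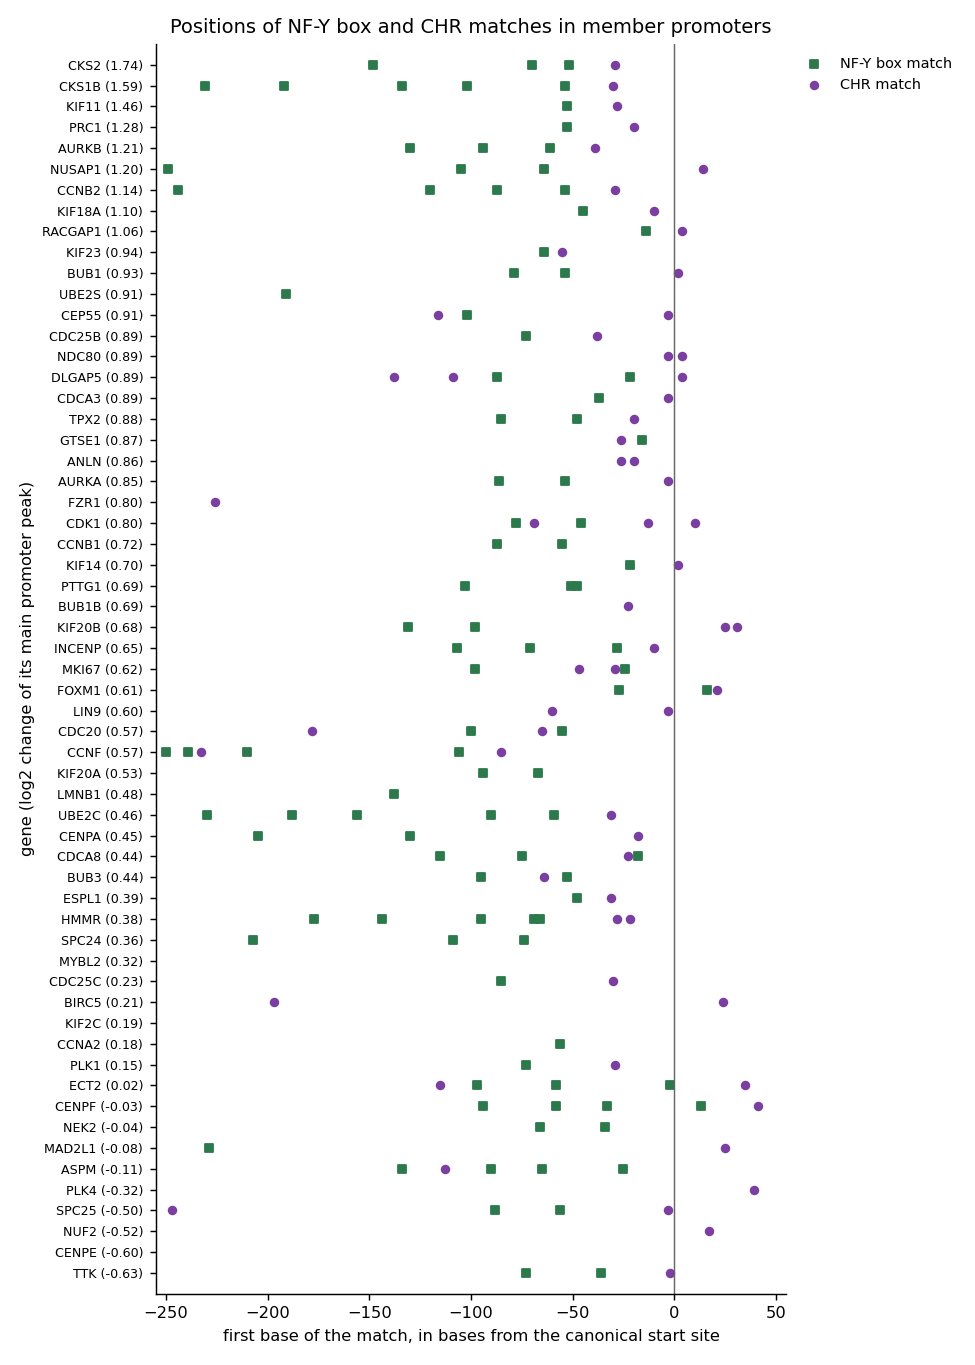
Positions of CCAAT (NF-Y box, green squares) and CHR matches (purple circles) from 250 bases before to 50 bases after the canonical TSS of the 59 genes, with genes ordered by the log2 change of their main promoter peak (in brackets) from the largest rise at the top. CHR matches gather just upstream of the start, with CCAAT boxes further upstream. No match appears in the window for CENPE, KIF2C and MYBL2.

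Values are read counts that had been brought to the depth of the smallest library by the authors. Changes are M-phase over G1 in log2(scaled count + 8), where the 8 damps the change of weak peaks. Each peak was tested with limma, p-values were adjusted by Benjamini and Hochberg's method across all 73121 peaks kept by the filter, and a peak was called at an adjusted p under 0.05. SE stands for the standard error of a log2 change. The labels number the replicates without saying whether they were separate cultures, so p-values measure the spread between these libraries, which may be technical. Summed over all peaks, scaled counts came to 4191845 to 5092426 per G1 library and 5475345 to 6000423 per M-phase library. As a check of the line, promoter peaks were present at 5 of 7 glioma markers (VIM, CD44, FN1, OLIG2 and, with means of only 11.6 in G1 and 7.7 in M-phase, SOX2) and no peak covered a TSS of GFAP or NES. Of 4 markers of other cell types, the blood cell genes PTPRC and CD3E and the liver gene ALB had none, but the epithelial gene EPCAM had a promoter peak, with means of 91.6 in G1 and 107 in M-phase.

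Most promoters of mitotic genes were more accessible in M-phase. Of the 59 main peaks, 38 were higher (64.4%), 3 were lower (5.08%) and 18 were not called, with a median log2 change of 0.62 and a range of -0.63 to 1.74. A rise of at least 2-fold was seen at 9 of them. The share of other promoters with such a rise was not counted, so this number does not set the mitotic genes apart. The background at other promoters was also high, since 43.1% of 15436 other promoter peaks were called higher and 5.94% lower, with a median of 0.39. Over all peaks tested 14.3% were higher and 13.1% lower, and over peaks that overlap no TSS 6.51% were higher and 15% lower. All M-phase libraries exceeded all G1 libraries at 40 of the 59 peaks (other promoters 48.4%), and lay below all of them at 1, SPC25 (other promoters 8.73%). The remaining 18 overlapped.

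Rises at promoters grew with the strength of the peak, and the mitotic genes had about the same median change as promoters of similar strength. For each main peak, the median change of all other promoter peaks with a mean scaled count of 80.0% to 125% of its own (172 to 3071 peaks) was subtracted. The difference had a median of 0.01, with 30 genes above and 29 below their neighbours. Among those neighbours, on average 60.2% were called higher and 3.48% lower, close to the members' 64.4% and 5.08%. The spread was wide, as 15 genes lay above the upper quartile of their neighbours and 15 below the lower quartile. Within quartile classes of promoter peaks by mean scaled count, no member fell in the weakest class. Between 67.7 and 150.4, 5 of 12 members were higher (41.7% against 32.3% of other promoters), and between 150.4 and 266, 15 of 22 were higher (68.2% against 56.3%). In the strongest class the order turned, with 18 of 25 members higher (72.0% against 76.7%) and medians of 0.57 for members and 0.82 for other promoters.

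**Figure D2:**
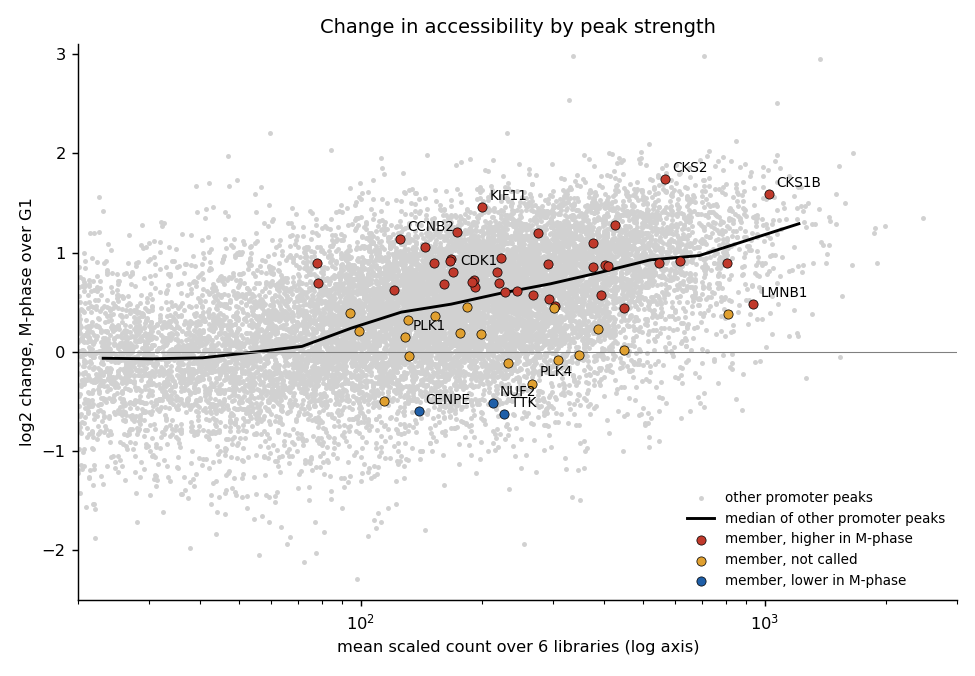
Log2 change of accessibility (M-phase over G1) against the mean scaled count over the 6 libraries (log axis). Other promoter peaks are grey, with their running median as a black line, and the weakest of the 15436 are not drawn. The 59 main peaks of mitotic genes are colored by call. The mitotic genes scatter on both sides of the line, which rises with the mean. CKS2, KIF11 and CCNB2 lie above it by 0.81, 0.91 and 0.76 relative to peaks of similar mean, CKS1B by 0.43, and TTK, CENPE, NUF2 and PLK4 lie below it, at -1.21, -1.02, -1.09 and -0.95.

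Summed over the 59 peaks, mitotic genes took 0.564%, 0.531% and 0.572% of the reads in promoter peaks in the G1 libraries and 0.567%, 0.56% and 0.577% in the M-phase libraries. These ranges overlap. Of all reads in peaks, their share was 0.296% ± 0.0214 (SD, n = 3) for the G1 libraries and 0.365% ± 0.00802 (SD, n = 3) for those of M-phase, without overlap. The median scaled count over the 59 peaks was 172, 161 and 205 in G1 and 242, 263 and 270.4 in M-phase.

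Because change and strength moved together, a trended loess fit on abundance was used as an alternative normalization, and it removed most of the rise. Under it 15 of the 38 calls remained, no other gene was higher, 13 genes were lower and 31 were not called, with a median of 0.05 for mitotic genes and 0.06 for other promoters, of which 21.2% were higher and 17.0% lower. The split of calls therefore depends on this choice, and the groups of genes are given here with both. CDCA8 and LMNB1 were called higher under the authors' scaling and lower under the loess fit.

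**Figure D3:**
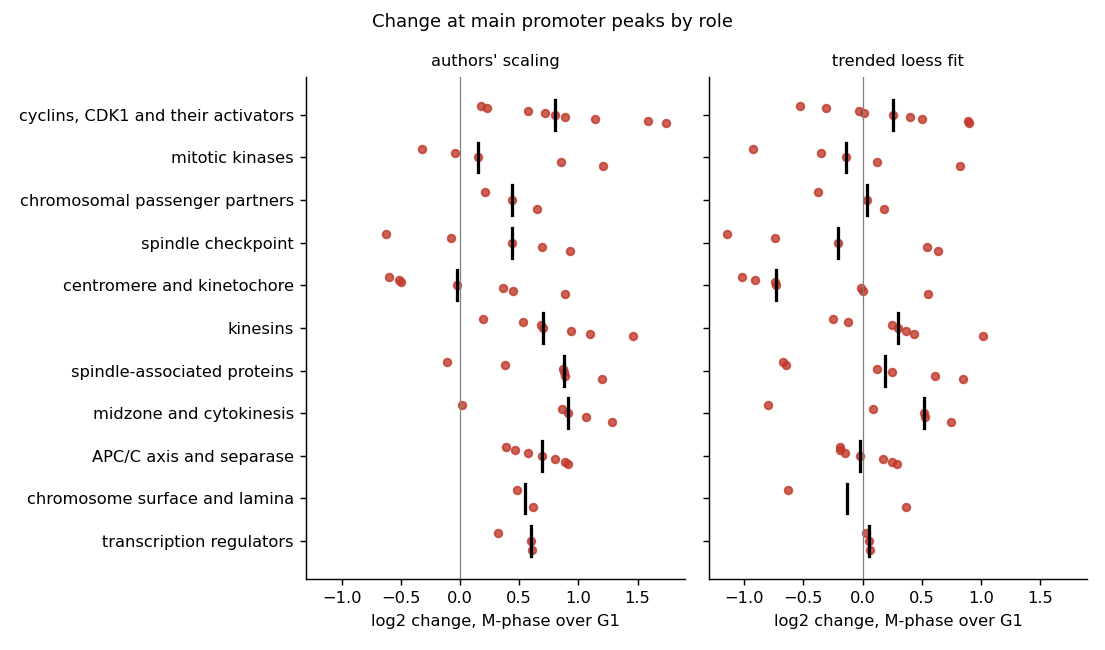
Log2 change (M-phase over G1) of each main promoter peak, as 1 point per gene grouped by role, under the authors' scaling (left) and after a trended loess fit on abundance (right), with the median of a group as a black bar. Among the groups drawn, the 7 centromere and kinetochore genes sit lowest under both, with medians of -0.03 and -0.73. Medians stay above 0 under both for cyclins and CDK1, passenger partners, kinesins, spindle-associated proteins, midzone genes and transcription regulators.

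Cyclins, CDK1 and their activators rose at 7 of 9 genes with none lower (median 0.80), and by loess 3 were higher and 1 lower (median 0.26). Against promoters of similar strength the median of this group was 0.18, with 5 of 9 above their neighbours. CKS2, a small subunit that binds cyclin-dependent kinases, had scaled counts of 234.6, 232 and 307 in G1 and 769.1, 890.4 and 966.7 in M-phase. The phases were far apart, and the log2 change of 1.74 (SE 0.16, adjusted p = 7.42e-15, limma) was the largest among the 59 genes. Its paralog CKS1B went from 585.6, 445.3 and 500 to 1465.3, 1610.6 and 1556.6, a log2 change of 1.59 (SE 0.15, adjusted p = 4.19e-15, limma). That peak also holds a TSS of SHC1, so the reads cannot be assigned to either gene. CCNB2, a B-type cyclin, rose from 82.5, 42.2 and 111 to 178, 171.4 and 164.1, with no overlap and a log2 change of 1.14 (SE 0.22, adjusted p = 2.06e-05, limma). CCNB1, the principal partner of CDK1, was at 126.3, 114.1 and 190 in G1 and at 194, 262.9 and 255.5 in M-phase. Its lowest M-phase library was barely above the highest G1 library. The change was 0.72 (SE 0.19, adjusted p = 0.00269, limma), and its call was lost by loess (0.26, adjusted p = 0.217, limma) and with equal totals in peaks (0.38, adjusted p = 0.056, limma). CDK1 itself was at 145.1, 98.4 and 122 in G1 and at 189.5, 222.9 and 237.7 in M-phase, without overlap. Its change was 0.80 (SE 0.19, adjusted p = 7.59e-04, limma), and 0.40 by loess with an adjusted p of 0.0585. The phosphatase CDC25B, which activates CDK1, rose by 0.89 (loess 0.01), and CCNF, an F-box protein and cyclin, rose by 0.57 (loess -0.03). CCNA2, a cyclin of S and G2, overlapped between the phases with 158.1, 168 and 237 in G1 and 198.1, 206.4 and 228.6 in M-phase (log2 change 0.18, adjusted p = 0.524, limma). CDC25C, another CDK1-activating phosphatase, was not called at its main peak (0.23), shared with FAM53C, or at the peak over its canonical TSS (0.19). By loess its main peak was at -0.53 and was the peak of the group called lower (adjusted p = 0.000243, limma).

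Mitotic kinases differed from each other, with 2 of 5 higher, none lower and a median of 0.15 (loess 1 higher, 1 lower, median -0.14). Their median relative to promoters of similar strength was -0.24, with 2 of 5 above their neighbours. AURKB, the kinase of the chromosomal passenger complex, rose from 128.2, 90.6 and 87 to 221.6, 238.6 and 269.9, a change of 1.21 (SE 0.20, adjusted p = 5.69e-07, limma). AURKA, which acts at spindle poles, rose from 235.6, 213.3 and 357 to 416.9, 521.6 and 507.2, a change of 0.85 (SE 0.17, adjusted p = 6.19e-05, limma), in a peak shared with CSTF1. Both were free of overlap, but by loess AURKB had a change of 0.82 and was still called, and AURKA had 0.12 and was not. PLK1, a kinase of mitotic entry and spindle assembly, differed little, with 136.2, 119.5 and 109 in G1 and 139.2, 120.3 and 147.7 in M-phase (log2 change 0.15, adjusted p = 0.639, limma). Its promoter, shown above, holds a CCAAT box and a CHR, as do those of AURKB and CDK1. PLK4, which controls centriole duplication, was at 302.2, 218 and 379 in G1 and at 235.2, 246 and 217 in M-phase, with a change of -0.32 (adjusted p = 0.195, limma). Under loess that change was -0.93 and was called lower. NEK2, a centrosomal kinase, was at -0.04.

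The partners of AURKB in the passenger complex were INCENP, CDCA8 (borealin) and BIRC5 (survivin), of which 2 of 3 rose under the authors' scaling (median 0.44) and none by loess (median 0.04), where CDCA8 was lower. The 3 genes had a median of -0.06 relative to promoters of similar strength, with 1 of 3 above its neighbours. INCENP rose from 140.2, 125.8 and 179 to 218.7, 230.3 and 255.5 (log2 change 0.65, SE 0.19, adjusted p = 0.00568, limma). CDCA8 was at 367.8, 320.3 and 452 in G1 and at 493.5, 473.8 and 578.9 in M-phase, a change of 0.44 (adjusted p = 0.036, limma), against -0.38 by loess. Its call was lost when any library other than G1 replicate 3 was left out. BIRC5 was at 71.6, 96.9 and 107 in G1 and at 107.9, 103.8 and 105.9 in M-phase, so the phases overlapped and the change of 0.21 was not called.

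Spindle checkpoint genes were divided, with BUB1 (0.93) and BUB1B (0.69) higher, TTK lower, and BUB3 (0.44) and MAD2L1 (-0.08) not called. The median of these 5 genes was 0.44, and by loess 2 were higher and 2 lower with a median of -0.21. Compared with promoters of similar strength their median was -0.25, with 2 of 5 above their neighbours. BUB1, a checkpoint kinase, went from 121.3, 100.8 and 116 to 226.6, 210.6 and 229.5, and BUB1B (BubR1) from 57.7, 59.4 and 56 to 115.8, 89.8 and 90.5. Both were free of overlap. TTK (MPS1), the kinase that initiates checkpoint signaling, had 240.6, 205.5 and 389 in G1 and 137.2, 174.7 and 206.9 in M-phase. The highest M-phase library was just above the lowest G1 library, and the change of -0.63 (SE 0.19, adjusted p = 0.00892, limma) was the lowest among the 59 genes.

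Centromere and kinetochore genes had the lowest median of any group under both normalizations with all libraries, with 1 of 7 higher, 2 lower and a median of -0.03, and by loess 1 higher, 4 lower and a median of -0.73. Against promoters of similar strength their median was -0.78. Without G1 replicate 3 the median was 0.19, with 3 higher and none lower, and the lowest group was then the mitotic kinases at 0.08. The low median of these 7 genes was not shared by 25 other kinetochore genes, which are listed further below. With all libraries the 25 had a median of 0.54, with 14 higher and 2 lower. By loess their median was 0.12, with 6 higher and 2 lower. The 7 and the 25 genes were not matched for strength, and the difference was not tested. NDC80, a microtubule-binding subunit of the outer kinetochore, was the gene among the 7 that rose (0.89, loess 0.55), in a peak shared with METTL4. CENPE, a kinetochore motor, fell from 144.2, 121.9 and 251 to 123.6, 103.4 and 91.4, a change of -0.60 (SE 0.21, adjusted p = 0.022, limma). NUF2, the direct partner of NDC80 in the same complex, fell from 241.6, 177.3 and 344 to 154.5, 185 and 168.4, a change of -0.52 (SE 0.19, adjusted p = 0.0336, limma). Single libraries of the phases overlapped at both. The peak of NUF2 also holds a TSS of RGS5. SPC25, a further subunit of that complex, was at 125.3, 114.8 and 168 in G1 and at 81.6, 98.9 and 98.2 in M-phase, without overlap, and its change of -0.50 missed the threshold (adjusted p = 0.0622, limma). SPC24, which pairs with SPC25, was at 0.36, CENPA, the centromeric histone variant, at 0.45 and CENPF, a large kinetochore protein, at -0.03, none of them called. The 4 subunits of the NDC80 complex thus had values from -0.52 to 0.89.

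Under the authors' scaling the 3 lower calls were lost without G1 replicate 3. The fits by loess and with equal totals were not repeated without it. This library was the highest of all 6 at 11 of the 59 main peaks (CCNA2, PLK4, NEK2, MAD2L1, TTK, CENPE, CENPF, NUF2, SPC25, ASPM and ECT2), against 21.8% of other promoters. It was the highest of the G1 libraries at 42, for which the share of other promoters was not counted. Without it, no mitotic gene was called lower, and the changes of TTK, CENPE and NUF2 were -0.37, -0.31 and -0.28. ASPM, a spindle pole protein at 179.9, 200.8 and 353 in G1 and at 208, 218 and 224.2 in M-phase, then turned from -0.11 to 0.18, neither called. NUF2 lost its call also without G1 replicate 1 or any single M-phase replicate, CENPE without M-phase replicate 2 or 3, and TTK without M-phase replicate 1.

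Kinesins, the motors that move spindles and chromosomes, were higher at 6 of 7 genes (median 0.70), and by loess 3 were higher and none lower (median 0.30). Relative to promoters of similar strength the median of the 7 was 0.20, with 5 above their neighbours. CENPE, a motor counted here with the kinetochore genes, is not among the 7 and was called lower under both normalizations. KIF11 (Eg5), which pushes spindle poles apart, went from 98.4, 107 and 103 to 273.5, 298.3 and 318.5 at its strongest peak (chr10:94332761-94334455), a change of 1.46 (SE 0.19, adjusted p = 1.18e-09, limma). That peak lies over an upstream TSS and also holds one of IDE. The peak over the canonical TSS of KIF11 (chr10:94352378-94353545) was at 59.7, 67.2 and 90 in G1 and at 123.2, 155.7 and 161.7 in M-phase, a change of 0.96 (adjusted p = 0.000215, limma). The phases did not overlap at either of these peaks. A much weaker peak over another TSS of KIF11 had 17.9, 7.8 and 5 in G1 and 12.4, 21.8 and 17.8 in M-phase, with overlap and no call (0.52, adjusted p = 0.192, limma). KIF18A (1.10), KIF23 (0.94), KIF14 (0.70, loess 0.25), KIF20B (0.68, loess 0.30) and KIF20A (0.53, loess -0.12) also rose, the last 3 without a call by loess, whereas KIF2C (0.19), a microtubule depolymerase, was not called.

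Genes of the spindle midzone and cytokinesis were higher at 4 of 5 (median 0.91, loess 3 higher and 1 lower, median 0.52). Set against promoters of similar strength, their median was 0.42, with 4 of 5 above their neighbours. PRC1, which bundles midzone microtubules, rose from 212.8, 189.1 and 352 to 599.4, 623.8 and 581.3, a change of 1.28 (SE 0.17, adjusted p = 5.21e-09, limma). RACGAP1 (1.06), CEP55 (0.91) and ANLN (0.86) rose too, ANLN without a call by loess (0.09), and ECT2, the exchange factor that activates RhoA at the cell equator, was at 0.02 and was called lower by loess (-0.80). Among spindle-associated proteins 4 of 6 were higher (median 0.88, loess 2 higher and 2 lower, median 0.18). Beside promoters of similar strength these genes had a median of 0.13, with 4 of 6 above their neighbours. NUSAP1, a microtubule-binding protein, led them with 174, 153.9 and 161 in G1 and 348.9, 375.8 and 434.5 in M-phase, a change of 1.20 (SE 0.18, adjusted p = 6.06e-08, limma), in a peak (chr15:41624136-41625839) shared with OIP5. DLGAP5 (0.89, loess 0.85), TPX2 (0.88) and GTSE1 (0.87) rose, of which TPX2 (0.25) and GTSE1 (0.12) were not called by loess. HMMR was at 0.38 and not called (loess -0.67, lower).

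APC/C activators, ubiquitin-conjugating enzymes, securin, CDCA3 and separase were uniform, with 6 of 7 higher and a median of 0.69. By loess, however, none of the 7 was called in either direction (median -0.02). Relative to promoters of similar strength their median was -0.06, with 3 of 7 above their neighbours. UBE2S (0.91), CDCA3 (0.89), FZR1 (0.80), PTTG1 (securin, 0.69), CDC20 (0.57) and UBE2C (0.46) rose, and by loess UBE2S, CDCA3, CDC20 and UBE2C had values just below 0, from -0.19 to -0.02. ESPL1, which encodes separase, was at 0.39 and was not called. MKI67, which coats mitotic chromosomes, rose by 0.62 (loess 0.37, not called), and LMNB1, a subunit of the nuclear lamina, by 0.48 (loess -0.63, lower). Relative to promoters of similar strength MKI67 was at 0.27 and LMNB1 at -0.61.

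Of the regulators that drive these promoters, 2 of 3 rose under the authors' scaling and none was called by loess (medians 0.60 and 0.05). Their median relative to promoters of similar strength was 0.01, with 2 of 3 above their neighbours. FOXM1 had 172, 207 and 193 in G1 and 272.3, 309.4 and 305.6 in M-phase, a change of 0.61 (SE 0.18, adjusted p = 0.00568, limma), in a peak that also serves RHNO1 and TULP3. LIN9 rose from 171, 161.7 and 207 to 275.2, 275.2 and 278.1, a change of 0.60 (SE 0.18, adjusted p = 0.00734, limma). Neither overlapped between the phases. MYBL2 was at 96.4, 160.9 and 95 in G1 and at 136.4, 142.2 and 155.9 in M-phase, with an overlap through G1 replicate 2 (log2 change 0.32, adjusted p = 0.259, limma).

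**Figure D4:**
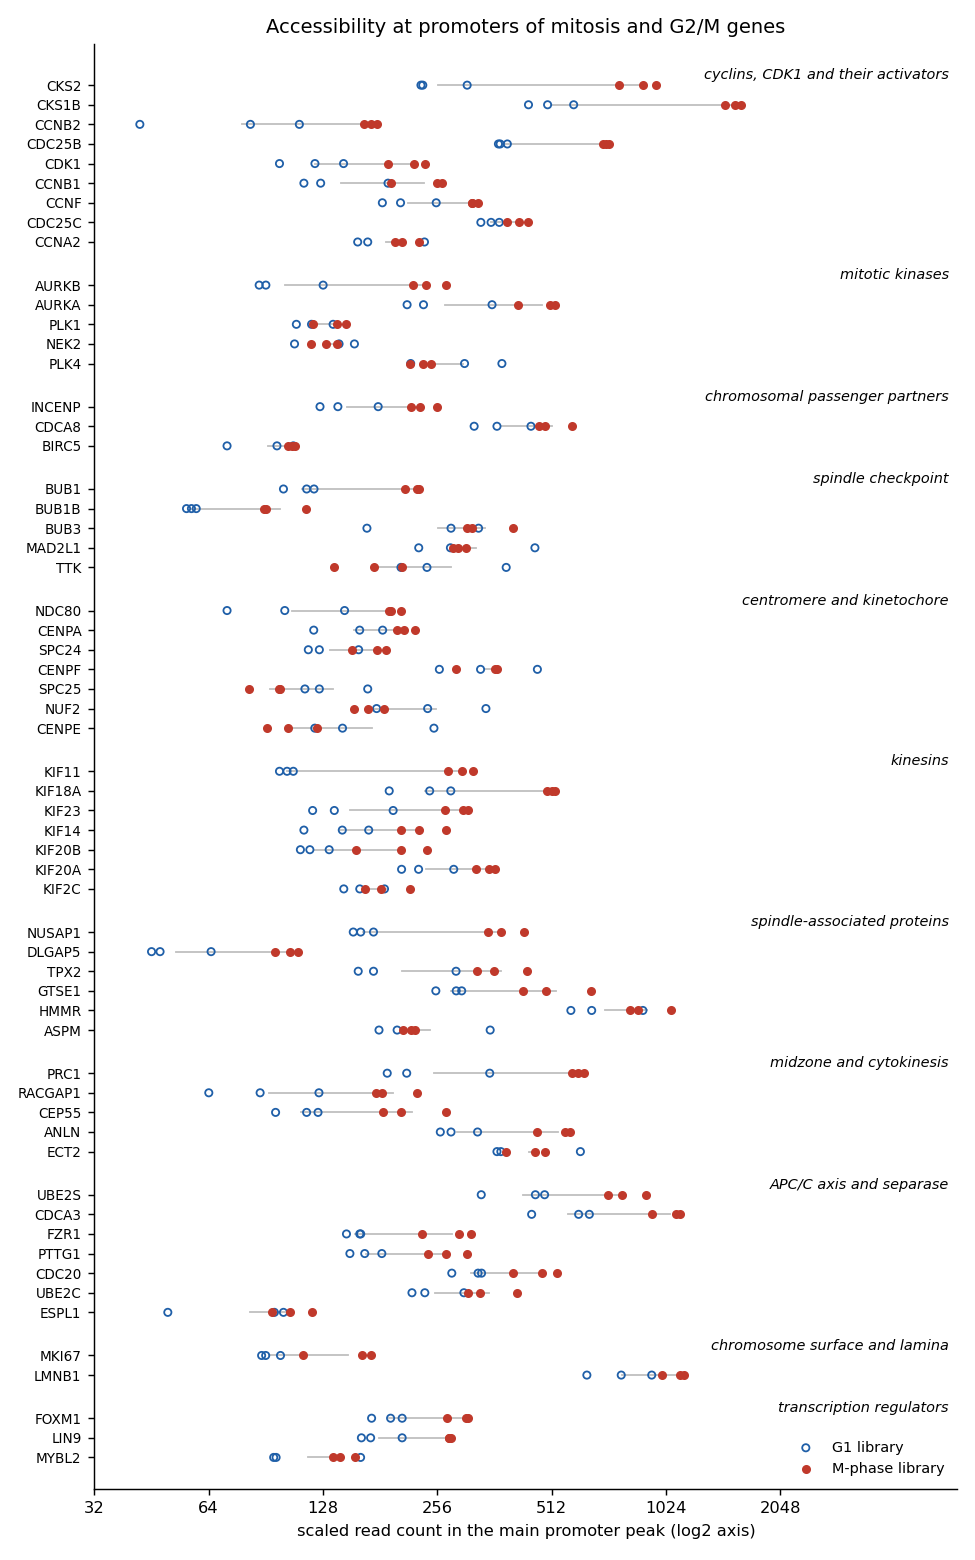
Scaled read count (log2 axis) in the main promoter peak of each of the 59 genes in the 3 G1 libraries (open blue circles) and the 3 M-phase libraries (filled red circles), grouped by role and ordered by log2 change, with a grey line between the means of the phases. The phases are far apart at CKS2, CKS1B and KIF11, overlap at PLK1 and BIRC5, and have the lower mean in M-phase at TTK, CENPE and NUF2, where G1 replicate 3 is the highest point.

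The elements near the start were set beside the changes, a comparison that was added after the values had been seen and has no test. The 35 genes with a CHR within 60 bases before to 20 after the canonical TSS had a median change of 0.87 at the peak that holds it, with 28 higher and 1 lower (TTK), and a median of 0.20 relative to promoters of similar strength. For the 24 genes without one these values were 0.34, with 10 higher and 2 lower, and -0.25. By loess the medians were 0.25 and -0.20. Other promoters did not show this gap, with medians of 0.61 for the 172 that hold such a CHR and 0.59 for 9000 that do not, and 61.0% and 58.9% called higher. The number of CCAAT boxes did not order the changes of the mitotic genes, with medians of 0.32, 0.89, 0.62 and 0.57 for 0, 1, 2 and at least 3 boxes. GC content of the 300 bases at the TSS nearest the middle of the peak was lower in mitotic promoters (median 63.0%) than in the 10987 other promoters in the same range of means (68.3%). Across the 59 genes it correlated with the change by Pearson's r of 0.07 and Spearman's rho of 0.06, a description over peaks of the same libraries.

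Main peaks that hold a TSS of another protein-coding gene were higher at 12 of 15 and lower at 1 (median 0.85), and by loess higher at 5 and lower at 4 (median 0.09). Those that hold none were higher at 26 of 44 and lower at 2 (median 0.59), and by loess higher at 10 and lower at 9 (median 0.03). Promoters of similar strength to the 59 genes were higher at 60.2% and lower at 3.48% on average. The shared and unshared peaks were not matched with each other for strength, and the contrast between them was not tested. Further minor peaks over member TSSs were few. CDC25B had another over an alternative TSS that also serves CENPB (0.84, adjusted p = 4.2e-05, limma), and CENPA another shared with SLC35F6 (0.82, adjusted p = 0.00174, limma). Away from any TSS, 39 peaks lay inside the 59 genes, and 16 of them passed the filter. Of these, 2 were higher (12.5%) and 1 was lower (6.25%), with a median of -0.10. Among all tested peaks that overlap no TSS, 6.51% were higher and 15% lower, with a median of -0.05. The difference was not tested, and calls at 1 or 2 peaks do not set these genes apart. An intronic peak of AURKA, chr20:54949088-54949327, had 32.8, 29.7 and 34 in G1 and 7.8, 3.7 and 11.5 in M-phase. It fell with no overlap (log2 change -1.39, SE 0.29, adjusted p = 7.92e-05, limma), while the promoter of the same gene rose. The higher peaks were both in introns of SPC24, at chr19:11248267-11250194 with a change of 0.79 and at chr19:11252989-11254210 with 0.58, whereas the promoter of that gene was not called.

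Of 80 others that act in mitosis, 79 had a promoter peak, with 46 higher (58.2%), 3 lower and a median change of 0.58. Other promoters of any strength were higher at 43.1%, a share that includes the weakest class, with only 7.23%. In the 3 stronger classes the shares were 32.3%, 56.3% and 76.7%. By loess 22 were higher (27.8%, against 21.2%) and 9 lower, with a median of 0.12. DREAM, MuvB and NF-Y subunits were higher at 8 of 12 (loess 1), APC/C subunits at 9 of 15 (loess 5), and genes of the entry kinases and the opposing phosphatase at 6 of 8 (loess 3), and by loess 1 gene of each of these lists was lower. Other kinetochore genes were higher at 14 of 25 with 2 lower (loess 6 and 2), and other spindle and midbody genes at 9 of 19 with 1 lower (loess 7 and 4). The largest values were those of WEE1, the kinase that inhibits CDK1 (1.64), KNL1, a kinetochore scaffold (1.64), and KNTC1, a checkpoint protein (1.57). ZWINT (-0.65) and CENPC (-0.62), both of the kinetochore, and DEPDC1 (-0.53) were lower, and in all 3 G1 replicate 3 was again the highest library. Without that library no gene of this list was called lower. Of 36 genes of G1/S and DNA replication, 35 had a promoter peak, with 29 higher (82.9%), none lower and a median of 0.82, and by loess 16 higher (45.7%), 4 lower and a median of 0.38. CDC25A stands in both lists, and TACC3 of the first and SLBP of the second had the same value in every library. Their peaks, all called higher, are thus counted in each list. Neither list was matched for strength with other promoters, and the difference between the lists was not tested.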

How the data were processed

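ATAC-seq libraries of T98G were used, with 3 per phase. In the authors' hands adapters were cut with cutadapt, reads lost a further base at the 3′ end and were mapped to hg19 by Rbowtie (QuasR), mitochondrial reads were dropped using samtools, and macs2 called broad peaks after replicates had been merged. Tool versions and any shift of read ends for Tn5 are not given in the sources used here. Reads with up to 3 locations kept 1 of them, so near-identical sequences share reads. The signal values that the authors deposited are read counts in peaks, brought to the depth of the smallest library and given to 0.1. The authors' deposited log2 column and its SD were not used. Each M-phase column joins runs on a HiSeq and a NextSeq in a way that is not stated. Columns of per-sample values left unused numbered 0. Sequencing of input and chromatin fractions was not analysed here.

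Peaks over a TSS of GENCODE release 44 on GRCh37 (the assembly of hg19) were promoter peaks. The test was limma (version 3.58.1, R 4.3.3) with its trend option on log2(scaled count + 8), without covariates. Peaks were kept if at least 3 libraries reached a value worth 10 in a library of median total and all libraries together reached 15. A trial of the fit on simulated data used equal totals instead of the authors' scaling and held no trend of change with strength. It therefore does not bear on the main calls. Other steps used Python 3.11.15, numpy 2.4.6, pandas 2.3.3, scipy 1.17.1 and matplotlib 3.10.9. Alternatives were other scalings (TMM, trended loess, equal totals), filters, a pseudocount of 1, the replicate number as a block, each library left out, and other choices of peak, TSS, neighbours and motif window. Members, roles and lists were chosen with earlier results of these data known. Values per library are given for the cyclin and kinase core, the passenger complex, the regulators, the 6 largest and 6 lowest changes and every gene called lower. BUB1 and BUB1B, the intronic peak of AURKA and the minor KIF11 peak were chosen after their values were seen, as were genes named outside the 59. The remaining members are given by their change.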

Additional observations from a re-analysis of the deposited data

How the results depend on the processing

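The 38 higher and 3 lower calls became 15 and 13 with a trended loess fit and 23 and 9 with equal totals in peaks, and the median change of 0.624 became 0.048 and 0.292. Equal totals moved the median over all tested peaks from 0.023 to -0.235. Leaving out a library gave 29 to 42 higher and 0 to 5 lower calls, a median of 0.560 to 0.676 and a difference from similar promoters of -0.056 to 0.052 (0.007 with all libraries). That difference was -0.042 for main peaks with no other coding TSS, a choice made after seeing the data. TMM gave 40 higher and 4 lower. With the replicate block there were 39 higher and 4 lower, although same-numbered libraries did not deviate together (r of 0.0059, -0.0101 and 0.0284). These values cannot show whether same-numbered libraries were prepared together, which the labels do not say. Of the 38, 14 were called in every setting and 27 in every fit without a library.

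The sign turned by loess at 17 of the 59 genes, namely CCNA2 (-0.31), PLK1 (-0.14), CDCA8 (-0.38), CDC25C (-0.53), HMMR (-0.67), LMNB1 (-0.63), ECT2 (-0.80), KIF2C (-0.25), BUB3 (-0.21), CDC20 (-0.19), UBE2C (-0.19), CDCA3 (-0.15), KIF20A (-0.12), CCNF (-0.03), UBE2S (-0.02), SPC24 (-0.01) and CENPA (just below 0). With equal totals it turned at 7, CCNA2 (-0.16), PLK1 (-0.18), BIRC5 (-0.12), MYBL2 (-0.01), CDC25C (-0.11), KIF2C (-0.15) and ECT2 (-0.33). Without G1 replicate 3 it turned at NEK2 (0.06), MAD2L1 (0.21), CENPF (0.19) and ASPM, which ranged from -0.29 to 0.18 as single libraries were left out. In the window at the TSS nearest the peak's middle, 71.2% of the promoters held a CCAAT box, 71.2% a CHR and 6.78% an E2F match (other promoters 31.3%, 10.4% and 4.24%). Over whole peaks these were 83.1%, 91.5% and 16.9% (others 60.4%, 35.4% and 12.7%), and at the canonical TSS 81.4% for both CCAAT and CHR (others 35.7% and 9.53%). Count models were not run, because rounding hid the whole reads of 3 libraries.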
